A study of Mus musculus with 2 samples.

Results

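The 40 genes described here encode the contractile apparatus of skeletal muscle, its calcium handling and its energy supply. They were chosen by symbol from the 32285 genes counted and were looked up in both libraries. Single-cell RNA-seq had been made of cells sorted for tdTomato from Clec3b.creERT2; Ai14.R26.tdTomato mice, in which tamoxifen lets a Cre driven by *Clec3b*, a gene of connective tissue fibroblasts, switch on a permanent red label. The intact library came from unfractured femoral diaphyses with the muscle around them, and the callus library from the calluses of femoral fractures, both collected 3 weeks after fracture surgery. By the paper, intact and callus tissue was taken from 3 littermate mice and each kind was pooled on its own, which gave 1 library a group. There is thus no replicate, and no test was made between the groups. All intervals below are exact 95% intervals that cover counting error only.

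The intact library held 1872 barcodes and 12112002 unique molecular identifiers (UMIs, each standing for 1 captured transcript), and the callus library 3987 barcodes and 36714322 UMIs. Of these, 1214 and 3365 barcodes had at least 500 genes, with a median of 4904 and 6732 UMIs, and 1 barcode sequence occurred in both libraries. The labels call the mice male, but *Xist*, which female cells make from 1 X, was counted in 89.1% of 294 intact and 94.8% of 250 callus barcodes with fibroblast markers, and 4 Y-linked genes held 1 and 0 UMIs over all 1214 and 3365 barcodes.

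A muscle fibre is filled with sarcomeres, in which thick filaments of myosin pull on thin filaments of actin, and the troponin and tropomyosin of the thin filament let this happen when calcium leaves the sarcoplasmic reticulum. Most of these proteins exist as fast and slow isoforms, each encoded by its own gene, and fibres are typed by the myosin heavy chain they use: *Myh7* in slow fibres, *Myh2*, *Myh1* and *Myh4* in fast fibres of rising speed. *Myh3* and *Myh8*, the embryonic and perinatal heavy chains, mark developing and regenerating fibres. The 5 fast and developmental heavy chain genes lie side by side on chromosome 11 (from *Myh3*, which starts at 67078300, to *Myh8*, which ends at 67308634, mm10) and *Myh7* lies on chromosome 14. They are near-identical over long stretches, so reads could be split between them, and their values are uncertain to that extent.

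Myofibre barcodes were defined as those in which *Acta1* (skeletal muscle actin), *Ckm* (muscle creatine kinase), *Mylpf* (fast regulatory light chain), *Tnnt3* (fast troponin T) and *Tnnc2* (fast troponin C) together took at least 5% of the UMIs. There were 73 in the intact library, or 6.01% of barcodes (interval 4.74 to 7.50), and 221 in the callus library, or 6.57% (5.75 to 7.46). The 5 gate genes took a median of 17.7% of UMIs in intact and 18.8% in callus myofibre barcodes. Just inside the gate lay 6.61%, 7.003% and 8.97% in the intact and 5.32%, 5.60% and 5.69% in the callus library, and just outside it 4.10%, 1.53% and 0.734% and 4.56%, 4.001% and 3.95%. The label was checked against 8 muscle markers that are neither members nor gate genes (among them *Des*, desmin, and *Trdn*, triadin). All 8 were detected, at a summed 13812 CPM (UMIs of a gene in every 1000000 UMIs) in intact and 12376 CPM in callus myofibre barcodes, against 44.2 and 49.3 CPM in the others.

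Myofibre barcodes were shallow, with a median of 2320 UMIs and 776 genes in the intact and 1856 UMIs and 696 genes in the callus library. Mitochondrial transcripts took a median of 0.0755% and 0.126% of their UMIs, against 1.45% and 1.92% outside. *Malat1*, a transcript that stays in the nucleus, was at 21.4 CPM in intact and 603 CPM in callus myofibre barcodes, against 21677 and 11681 CPM outside. It was counted in 6 of 73 and 29 of 221 myofibre barcodes, and 1 barcode held 57.2% of its callus UMIs. Without the top barcode of each library the ratio between them fell from 28.2 to 14.5. *Clec3b*, which drives the Cre, had 1 UMI in intact and 0 UMIs in callus myofibre barcodes, and was at 1457 and 1135 CPM in fibroblast-like barcodes. Marker lists of other cell types were low in myofibre barcodes, the highest being the neutrophil list at 85.5 CPM in the intact and 297 CPM in the callus library, where it stood at 21549 and 17061 CPM outside. The myogenic progenitor list, which holds *Myog*, was higher inside than outside in the callus, at 65.7 CPM (47.0 to 89.5) against 12.5 CPM (11.4 to 13.8). In the intact library it was lower inside, at 39.2 against 69.4 CPM. The part of these differences between the libraries in the results below was not tested.

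Promoter windows of 6 members are shown because the results turn on these genes: *Acta1* is the most abundant, *Mylpf* a fast gene, *Tnnc1* and *Myh7* slow genes, and *Ttn* and *Mybpc2* the members at least 2-fold higher in the callus. Each is the 250 bases before a RefSeq gene start on GRCm38.p6, read 5′ to 3′ on the gene's strand, and no annotated exon overlaps it. Capitals mark E-boxes (CANNTG, the letters that MyoD family factors bind), MCAT elements (CATTCC, bound by TEAD factors) and MEF2 elements, each searched on both strands, with no overlap between them.
Acta1, chr8:123894776-123895025, minus strand: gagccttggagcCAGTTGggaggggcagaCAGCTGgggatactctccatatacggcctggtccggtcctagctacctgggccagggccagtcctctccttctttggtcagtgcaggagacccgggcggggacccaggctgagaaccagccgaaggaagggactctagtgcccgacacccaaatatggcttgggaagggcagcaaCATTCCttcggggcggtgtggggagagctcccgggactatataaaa
Mylpf, chr7:127211358-127211607, plus strand: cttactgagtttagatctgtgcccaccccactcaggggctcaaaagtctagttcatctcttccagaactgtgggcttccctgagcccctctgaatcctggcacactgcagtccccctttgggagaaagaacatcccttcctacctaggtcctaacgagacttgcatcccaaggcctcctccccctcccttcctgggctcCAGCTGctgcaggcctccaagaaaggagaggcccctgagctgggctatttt
Tnnc1, chr14:31208062-31208311, plus strand: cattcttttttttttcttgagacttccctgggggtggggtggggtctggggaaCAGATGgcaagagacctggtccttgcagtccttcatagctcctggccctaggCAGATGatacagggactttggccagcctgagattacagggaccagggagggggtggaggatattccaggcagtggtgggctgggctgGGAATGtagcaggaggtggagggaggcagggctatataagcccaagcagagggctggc
Myh7, chr14:54994627-54994876, minus strand: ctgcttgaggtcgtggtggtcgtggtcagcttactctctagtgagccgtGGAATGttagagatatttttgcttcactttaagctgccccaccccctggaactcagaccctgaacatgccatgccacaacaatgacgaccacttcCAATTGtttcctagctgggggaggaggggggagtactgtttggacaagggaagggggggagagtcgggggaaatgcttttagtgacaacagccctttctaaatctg
Ttn, chr2:76982548-76982797, minus strand: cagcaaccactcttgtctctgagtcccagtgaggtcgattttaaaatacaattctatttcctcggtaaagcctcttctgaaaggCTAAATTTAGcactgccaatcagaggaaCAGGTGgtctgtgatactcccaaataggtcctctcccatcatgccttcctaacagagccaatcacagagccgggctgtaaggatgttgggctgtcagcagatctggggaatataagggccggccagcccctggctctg
Mybpc2, chr7:44524670-44524919, minus strand: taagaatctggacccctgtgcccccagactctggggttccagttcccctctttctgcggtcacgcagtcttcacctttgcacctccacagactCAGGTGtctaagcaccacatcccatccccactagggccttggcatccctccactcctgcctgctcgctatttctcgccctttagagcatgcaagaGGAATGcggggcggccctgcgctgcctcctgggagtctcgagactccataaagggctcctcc

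Windows were found for 33 of the 40 members, 40 windows in all. An E-box stood in 36 of them (90%), against 66.2% of the 32851 windows of all genes. The MCAT letters stood in 11 (27.5%), against 12.6%, and a MEF2 element in 6 (15%), against 2.92%. Among the windows printed, fast and slow genes alike held an E-box, while only that of *Ttn* held a MEF2 element. These are matches of letters and say nothing of binding.

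The 40 members took 32.2% of all UMIs in intact and 31.9% in callus myofibre barcodes. Since the kit counts the 3′ end of a transcript once, CPM compares genes without division by length. By this measure *Acta1* was highest in both libraries, at 52137 CPM (51296 to 52989) and 50453 CPM (49891 to 51021), and it was counted in every myofibre barcode. The fast light chain *Mylpf* followed at 38817 and 45314 CPM. Next came *Tnnc2* at 37655 and 36492 CPM and the tropomyosin *Tpm1* at 34444 and 37399 CPM, an order of the latter pair that was turned in the callus. *Acta1*, *Mylpf* and *Tnnc2* are gate genes, so their height is in part set by the gate.

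**Figure D1:**
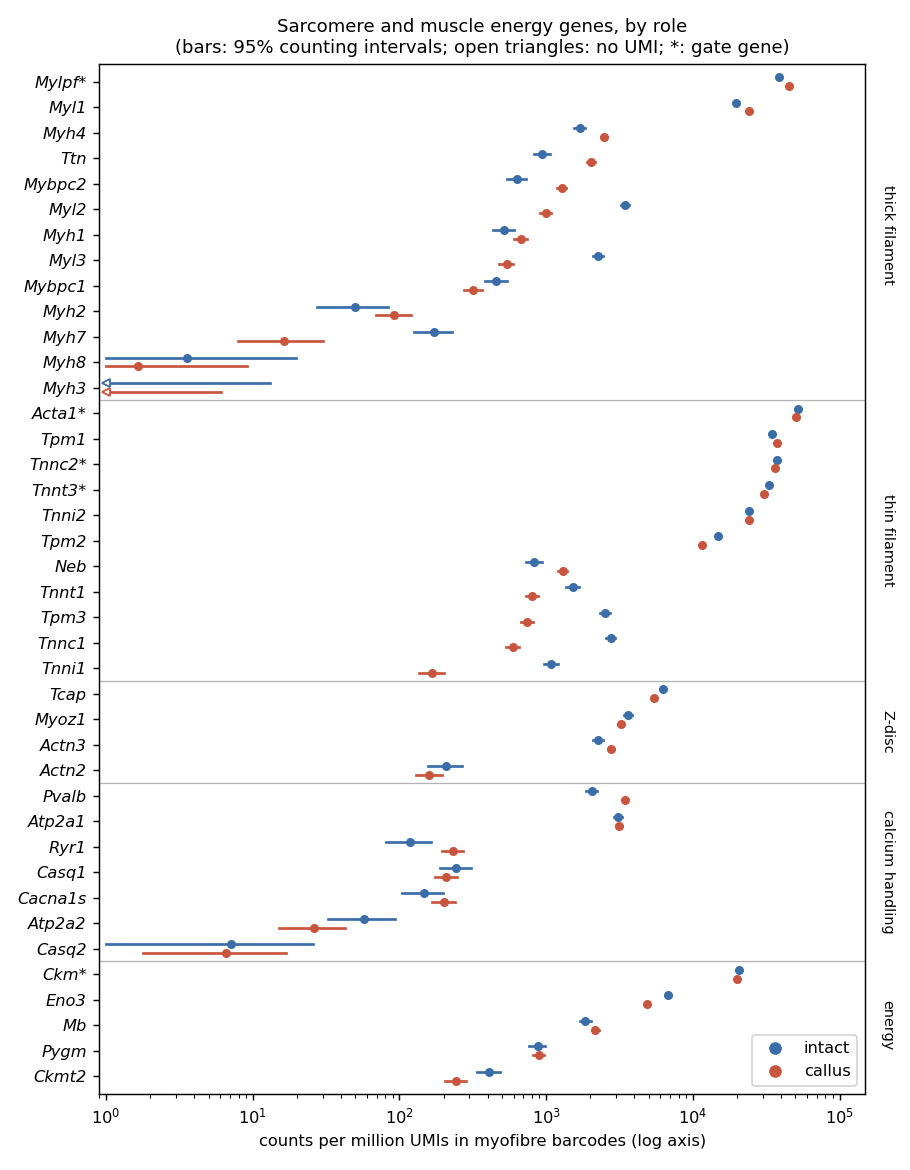
Level of each of the 40 genes, in CPM on a log axis, summed over 73 intact (blue) and 221 callus (red) myofibre barcodes, grouped by role. Bars are 95% counting intervals, cut at the axis, and open triangles mark genes with no UMI; the slow genes (Myl2, Myl3, Myh7, Tnnc1, Tnni1, Tpm3) lie to the left in the callus, and Ttn and Mybpc2 to the right.

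Among the heavy chains of the thick filament, the fastest, *Myh4*, took 69.6% of heavy chain UMIs in intact and 76.1% in callus myofibre barcodes. *Myh1* took 21.1% and 20.5%, *Myh2* 2.05% and 2.82%, and slow *Myh7* 7.04% (5.23 to 9.22) and 0.503% (0.242 to 0.924). The counting intervals of *Myh4* and *Myh7* stood apart between the libraries and those of *Myh1* and *Myh2* overlapped. These shares rest on 682 intact and 1987 callus UMIs, with a median of 5 and 6 heavy chain UMIs a barcode. *Myh7* was counted in 6 of 73 and 4 of 221 barcodes, with 45.8% and 50% of its UMIs in 1 of them. A single barcode held 71.4% of the intact *Myh2* UMIs. The intervals do not cover this spread over barcodes.

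The embryonic heavy chain *Myh3* had no UMI in myofibre barcodes of either library, with an interval that reached up to 13.15 CPM in the intact and 6.06 CPM in the callus library. The perinatal *Myh8* had 1 UMI in each. Together they made up 0.147% (0.00371 to 0.814) and 0.0503% (0.00127 to 0.280) of heavy chain UMIs. Over every barcode of the callus library, shallow ones included, *Myh3* had 2 UMIs and *Myh8* 2. Of these, 1 of each lay in barcodes with myogenic progenitor markers. *Myh3* was thus not detectable in callus myofibre barcodes at this depth.

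The other developmental genes were looked up in a list of 12, of which 4 had at least 20 UMIs. All 4 had a higher CPM in the callus, 3 of them at least 2-fold, against 7.93% of all genes, with a median ratio of 2.70. Over the fast barcodes defined below 2 of 4 were at least 2-fold higher, against 8.95%. *Myl6b*, a light chain with too few UMIs for these counts, went the other way over all myofibre barcodes, with 13 intact and 2 callus UMIs. None of its UMIs lay in fast barcodes, and it is named after its values were seen. *Sln*, sarcolipin, an inhibitor of the calcium pump, was at 121 CPM in intact and 1991 CPM in callus myofibre barcodes, 16.4-fold apart (11.7 to 23.9). It was counted in 8 of 73 and 48 of 221 barcodes, and 1 barcode held 20.2% of its callus UMIs. Among fast barcodes it had 8 UMIs in 1 intact and 1038 UMIs in 43 callus barcodes, 55.4-fold apart by CPM. *Actc1*, the cardiac actin that developing muscle also uses, was at 235 and 477 CPM, 2.03-fold apart (1.55 to 2.69) over all and 1.93-fold over fast barcodes. *Myl4*, the embryonic essential light chain, was at 82.0 and 145 CPM, 1.76-fold apart (1.11 to 2.93). It was counted in only 3 of 73 and 21 of 221 barcodes, and 1 barcode held 65.2% of its intact UMIs. Without the top barcode of each library its ratio moved to 4.25, so its size is uncertain. The last of the 4 is *Myog*, the myogenin that turns on fibre genes, named after its values were seen. It had 3 intact and 22 callus UMIs, a ratio of 3.38 with a wide interval whose lower end lay close to equality. Over fast barcodes, where *Myog* was also counted as higher, the interval held equality (0.941 to 16.3). All 3 intact UMIs sat in 1 barcode, and 1 barcode held 45.5% of the callus ones. *Myog* reached the minimum of 20 UMIs only through the callus, so its place in these counts and medians is in part set by that minimum.

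Fast and slow troponin genes separated the myofibre barcodes almost without overlap. The slow share is that of *Tnnt1*, *Tnni1* and *Tnnc1* among the UMIs of these 3 and the fast *Tnnt3*, *Tnni2* and *Tnnc2*. In the intact library 7 of 73 barcodes (9.59%, interval 3.94 to 18.8) had a slow share of at least 50%, and in the callus library 7 of 221 (3.17%, 1.28 to 6.42). They are called slow barcodes, and the others fast barcodes. Between slow shares of 20% and 80% there was no intact barcode and 1 callus barcode, at 51.5%. *Tnnt3* and *Tnnc2* are gate genes, and the gate share of slow barcodes lay between 6.61% and 12.2% in the intact and between 5.32% and 8.99% in the callus library, close to the 5% of the gate.

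In the fast barcodes, 65 of 66 in the intact library had no UMI of a slow troponin, and 200 of 214 in the callus library. The highest slow share among them was 0.0867% in the intact and 13.3% in the callus library, and 4 callus barcodes reached 5%. The barcode at 13.3% had 39 UMIs of *Tnnt1* beside 88 of *Tnnt3*, 22 of *Myl2* and 23 of *Myl3*, the slow light chains, and its 4 heavy chain UMIs were all of *Myh2*. It had no UMI of *Tnni1* or *Tnnc1*.

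Over all myofibre barcodes the slow share of troponin UMIs was 5.34% (5.08 to 5.61) in the intact and 1.67% (1.57 to 1.78) in the callus library. The deepest slow barcode, with 18926 UMIs in the intact and 14671 UMIs in the callus library, held 61.3% and 45.9% of the slow troponin UMIs. Without these 2 barcodes the shares were 2.15% and 0.913%. With the gate set at 10% they were 4.21% and 0.144%.

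The myosin light chains, of which the slow genes *Myl2* and *Myl3* are in neither the gate nor the slow share, sorted the barcodes in nearly the same way. Their slow share, among *Myl2*, *Myl3*, *Mylpf* and *Myl1*, was above 50% in 7 of 7 intact and 6 of 7 callus slow barcodes, and in no fast barcode of either library. The exception was a callus barcode of 3652 UMIs with a slow troponin share of 88.9% and a slow light chain share of 29.3%, in which *Mylpf* had 62 UMIs and *Myl2* 30.

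**Figure D2:**
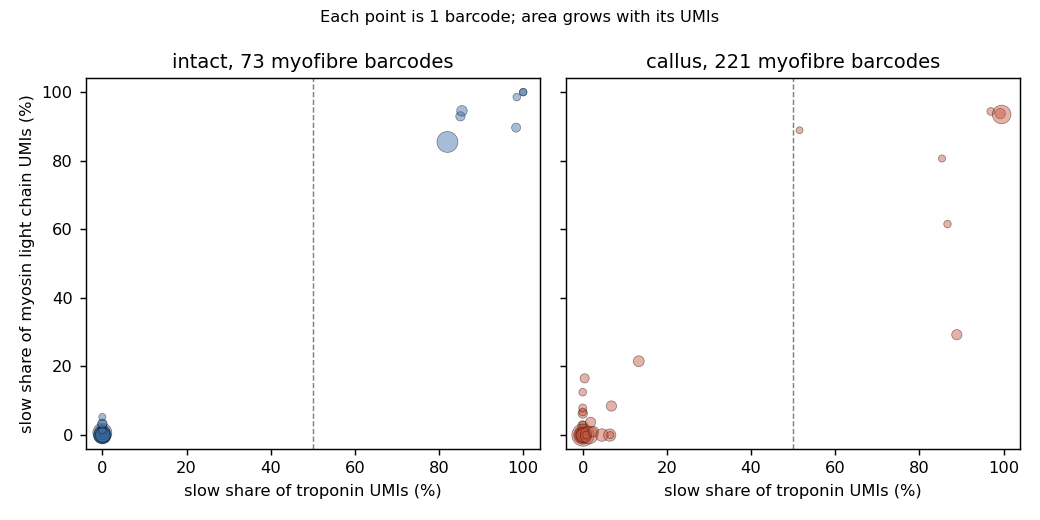
Slow share of troponin UMIs (x axis, %) against slow share of myosin light chain UMIs (y axis, %) in each myofibre barcode of the intact (left) and callus (right) library, with area growing with the UMIs of the barcode and the dashed line at the 50% limit. The 7 intact slow barcodes lie at the upper right, and in the callus library single barcodes lie between the groups, at 13.3% and at 51.5% slow troponin.

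Other members that the slow share did not use differed between slow and fast barcodes. *Tpm3*, the slow tropomyosin, was at 21845 CPM in slow and 4.03 CPM in fast barcodes of the intact library, from 707 UMIs and 1 UMI. In the callus library it was at 16141 and 24.1 CPM. *Tpm1* went the other way, at 2008 CPM in slow and 38673 CPM in fast intact barcodes and at 1140 and 39095 CPM in the callus. *Tpm2*, which fast and slow fibres share, was 1.59-fold higher in intact slow barcodes (1.46 to 1.72) and 1.58-fold higher in callus slow barcodes (1.44 to 1.73).

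*Myh7* was found in 6 of 7 intact slow barcodes and 3 of 7 callus slow barcodes, and in 0 of 66 and 1 of 214 fast ones. In the intact library its 48 UMIs in slow barcodes stood against none in fast ones, at least 123-fold higher. Of the calcium pumps, *Atp2a2* was 115-fold higher in intact slow than fast barcodes (17.7 to 4844, from 15 UMIs and 1 UMI) and *Atp2a1*, the fast pump, was at 433 against 3436 CPM. *Pvalb*, the calcium buffer parvalbumin of fast fibres, had no UMI in the slow barcodes of either library and was at least 24.9-fold and 32.7-fold lower there. *Actn3*, the fast Z-disc actinin, had 1 UMI in the slow barcodes of each library, and its fast level was 2534 and 2886 CPM. *Actn2*, the other actinin, was at 896 CPM in slow and 117 CPM in fast intact barcodes and at 515 and 143 CPM in the callus.

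Energy genes differed in both directions. Myoglobin, *Mb*, the oxygen store, was 3.16-fold higher in slow than fast intact barcodes (2.59 to 3.83) and 1.86-fold higher in the callus (1.51 to 2.27). *Eno3*, muscle enolase, was at 618 CPM in slow against 7553 CPM in fast intact barcodes and at 699 against 5084 CPM in the callus. *Ckm*, a gate gene, was at 8837 against 22263 CPM and at 4559 against 20808 CPM. *Tcap*, telethonin of the Z-disc, was 1.55-fold higher in slow barcodes of the intact library (1.37 to 1.76), and in the callus the interval of its ratio of 0.866 held 1 (0.720 to 1.03).

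Grouping by the leading heavy chain set apart further members. A barcode was given a leading heavy chain where it had at least 3 heavy chain UMIs and 1 gene held the most. This named 52 intact and 151 callus barcodes, led by *Myh4* in 34 and 118, by *Myh1* in 13 and 25, by *Myh2* in 1 and 6 and by *Myh7* in 4 and 2. Only *Myh4*-led and *Myh1*-led barcodes were compared, for the 26 other members with at least 20 UMIs in each library. Of these, 4 were at least 2-fold higher and 3 at least 2-fold lower in *Myh1*-led barcodes in both libraries, against 2.61% and 1.74% of the 1036 genes with as many UMIs. Of the 26, 23 lay on the same side of equality in both, a count that was not made for all genes.

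*Mb* was at 478 CPM in *Myh4*-led and 2934 CPM in *Myh1*-led intact barcodes, 6.13-fold apart (4.61 to 8.24), and at 732 and 5612 CPM in the callus, 7.67-fold apart (6.59 to 8.95). *Ckmt2*, the mitochondrial creatine kinase, was 2.13-fold higher in intact *Myh1*-led barcodes (1.29 to 3.51) and 4.52-fold higher in callus ones (3.04 to 6.75). Of its 61 UMIs in callus *Myh1*-led barcodes, 35 sat in 1 barcode, so the callus ratio rests largely on that barcode. *Mybpc1*, the slow myosin binding protein C, was 3.00-fold and 3.63-fold higher, and *Actn2* 8.52-fold and 5.61-fold, the former from 20 UMIs. In the other direction *Tpm1* was at 0.491 and 0.486 of its *Myh4*-led level, *Pvalb* at 0.327 and 0.423, and *Mybpc2*, the fast binding protein C, at 0.404 and 0.297.

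**Figure D3:**
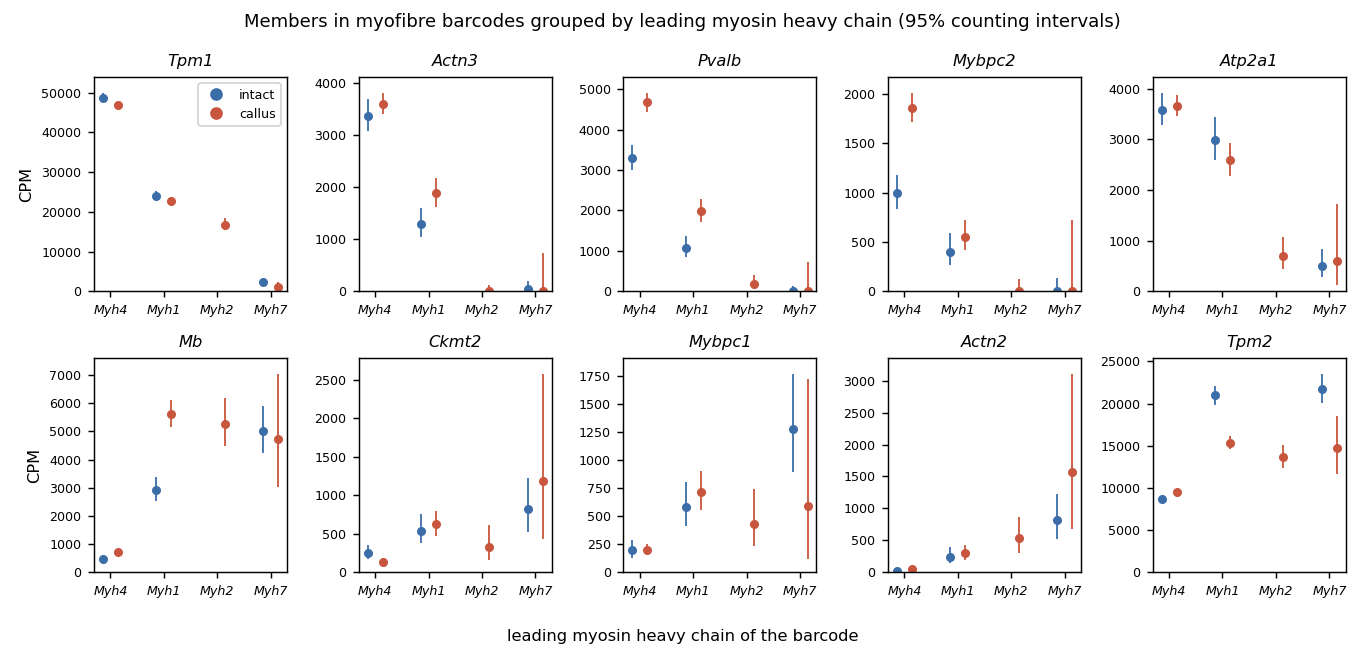
Level of 10 members, in CPM with 95% counting intervals, in myofibre barcodes grouped by the heavy chain gene with the most UMIs (x axis), for the intact (blue) and callus (red) library. The single intact barcode led by Myh2 is not drawn; Tpm1, Actn3, Pvalb and Mybpc2 stand highest in Myh4-led barcodes, and Mb, Ckmt2, Mybpc1 and Actn2 are higher in Myh1-led than in Myh4-led ones.

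Callus and intact myofibre barcodes were then compared member by member. Of the 40 members, 37 had at least 20 UMIs over both libraries. *Myh3*, *Myh8* and *Casq2*, the cardiac and slow calsequestrin with 2 and 4 UMIs, did not. At least 2-fold higher in the callus were 2 members, against 7.93% of all 3063 genes with as many UMIs, and at least 2-fold lower were 7, against 3.49%. The median ratio of callus over intact was 0.969 over the members and 1.03 over all these genes. Over fast barcodes the members' median lay above equality, at 1.11 against 1.04 over all genes, with 19 of 32 members higher and 13 lower. Of all genes there, 1568 of 2895 were higher. The 32 members include *Tnnt1* and *Myl2*, which reached the minimum of 20 UMIs only through the callus and could only be counted as higher. The members' median and split over fast barcodes are thus in part set by that minimum.

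All 7 members lower in the callus are slow isoforms or genes of slow fibres. *Myh7* was at 171 CPM (126 to 227) in the intact and 16.4 CPM (7.88 to 30.2) in the callus library. *Tnni1* was at 0.153 of its intact level, *Tnnc1* at 0.215, *Myl3* at 0.238, *Myl2* at 0.289, *Tpm3* at 0.295 and *Atp2a2* at 0.461, the last from 16 UMIs in each library. Without the top barcode of each library *Atp2a2* stood at 0.706, no longer 2-fold lower, *Tnni1* at 0.268 and *Myl3* at 0.361. *Tnnt1* was at 1514 and 802 CPM, 0.529 of its intact level. Slow barcodes made up 9.59% of the intact and 3.17% of the callus myofibre barcodes. Within the 7 slow barcodes of each library *Myh7* was at 0.223 of its intact level (0.0963 to 0.460), *Tnni1* at 0.345 (0.269 to 0.438) and *Myl3* at 0.426 (0.363 to 0.498). *Myl2*, *Tpm3* and *Tnnc1* were at 0.715, 0.739 and 0.550 there. Of 23 members with enough UMIs in slow barcodes, 6 were at least 2-fold lower, against 9.39% of 426 genes, and 1, *Mylpf*, was at least 2-fold higher, against 20.4%. The other 3 lower ones were *Mybpc1*, *Ckmt2* and the gate gene *Tnnc2*. The slow share that set slow barcodes apart uses *Tnni1*, *Tnnc1* and *Tnnc2*, and *Tnnc2* and *Mylpf* are gate genes. Their levels within slow barcodes are thus in part set by the selection. The counts of 6 and 1 are therefore not read against the shares of all genes. A single barcode held 18926 of the 32364 UMIs of the intact slow barcodes and 14671 of the 27197 UMIs of the callus ones. The former held 202 of the 304 *Tnni1* UMIs and 199 of the 246 *Tnnc2* UMIs of intact slow barcodes. Of the 92 *Mylpf* UMIs of callus slow barcodes, 62 sat in 1 barcode of 3652 UMIs. These calls thus rest largely on single barcodes, which the intervals do not cover. Fast barcodes, a split chosen after the data had been seen, could hardly show a fall of slow genes, since *Myh7*, *Myl2* and *Tnni1* had no UMI and *Tnnc1*, *Tpm3* and *Atp2a2* 1 UMI each in the intact ones. No member was at least 2-fold lower there, against 2.76% of 2895 genes, from which nothing is read. With 1 library a group, the fracture and the choice of muscle taken with the bone cannot be told apart.

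The 2 members higher in the callus were a smaller share of the 37 than that of all genes. *Ttn*, titin, the spring that spans the sarcomere, was at 937 CPM (827 to 1058) in the intact and 2021 CPM (1910 to 2137) in the callus library, 2.16-fold apart (1.89 to 2.47). It was counted in 62 of 73 and 194 of 221 barcodes, with medians of 761 and 1434 CPM a barcode, and the barcodes of both libraries overlapped widely, from 0 up to 9418 and 10136 CPM. *Mybpc2* was at 631 CPM (541 to 731) and 1275 CPM (1187 to 1368), 2.02-fold apart (1.71 to 2.39). Without the barcode with the most UMIs of the gene in each library the ratios were 2.16 and 2.11. With the gate at 2% no member was at least 2-fold higher.

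Among fast barcodes 3 of 32 members were at least 2-fold higher in the callus, against 8.95% of genes. *Ttn* was 2.10-fold higher (1.83 to 2.42), and *Mybpc2* fell just below the limit, at 1.87-fold. The other 2, *Tnnt1* and *Myl2*, were slow genes without a UMI in intact fast barcodes. They met the minimum of UMIs only through the callus, so they could be called higher but not lower. The slow share that set fast barcodes apart uses *Tnnt1*, so the level of this gene among them is in part set by the split. The count of 3 is therefore not read against the 8.95%. *Tnnt1* had 100 UMIs in 13 callus fast barcodes, at least 14.2-fold higher, and 39 of them were in 1 barcode. *Myl2* had 25 UMIs, at least 3.56-fold higher, of which 22 were in that same barcode.

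Below the 2-fold limit, *Pvalb* was 1.68-fold higher in the callus (1.53 to 1.85), at 2045 and 3444 CPM, and *Neb*, nebulin, the ruler of the thin filament, 1.57-fold higher (1.35 to 1.82). *Ryr1*, the calcium release channel, was at 118 and 230 CPM, 1.96-fold apart (1.33 to 2.95), and *Cacna1s*, its voltage sensor, at 146 and 200 CPM. *Casq1*, calsequestrin, was at 242 and 209 CPM, and *Atp2a1* at 3090 and 3122 CPM, with a ratio of 1.01 (0.932 to 1.10). Calcium handling members thus lay on both sides of equality. Leaving out the top barcode of each library moved 3 members past the limit, *Ryr1* to 2.22, *Myh2* from 1.84 to 5.19 and *Ckmt2* to 0.492.

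In the Z-disc, *Actn3* was at 2245 and 2759 CPM, *Tcap* at 6286 and 5445 CPM, *Myoz1* (calsarcin, which binds calcineurin) at 3628 and 3253 CPM and *Actn2* at 207 and 159 CPM. The energy genes lay on both sides of equality. *Eno3* was at 6753 CPM (6452 to 7064) and 4888 CPM (4714 to 5067), a ratio of 0.724 (0.683 to 0.767). *Ckmt2* was at 406 and 243 CPM, a ratio of 0.599 (0.466 to 0.771). *Pygm*, muscle glycogen phosphorylase, was at 873 and 889 CPM and *Ckm* at 20714 and 20081 CPM. *Mb* was at 1846 and 2159 CPM, 1.17-fold higher in the callus (1.06 to 1.30) and 1.41-fold higher over fast barcodes.

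Neighbouring genes of the same machinery were read from lists. Of 16 oxidative muscle genes tested, 15 had a lower CPM in the callus and 1 a higher, with a median ratio of 0.752, and 14 of 15 were lower among fast barcodes alone, with a median of 0.803, against medians of 1.03 and 1.04 over all genes. *Idh2*, mitochondrial isocitrate dehydrogenase, was at 328 and 120 CPM, but 1 barcode held 48.9% of its intact UMIs and its ratio was 0.366 over all and 0.808 over fast barcodes. *Fabp3*, the fatty acid carrier of muscle, was at 1390 and 677 CPM, with ratios of 0.487 and 0.609. *Slc25a4*, the adenine nucleotide carrier, was at 10665 CPM (10287 to 11055) and 6879 CPM (6673 to 7091), was counted in all 73 and 221 barcodes and had the ratio 0.645 over all and 0.644 over fast barcodes. It is named after its values were seen.

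Of 13 glycolysis genes, 10 had a lower CPM in the callus, with a median ratio of 0.855 and none 2-fold apart. Over all genes 1445 of 3063 were lower, with a median of 1.03. *Aldoa*, aldolase, was at 19054 and 14314 CPM, a ratio of 0.751 (0.726 to 0.777), and *Pgm1* at 410 and 304 CPM. The highest was *Gpd1*, of the glycerol phosphate shuttle, at 107 and 171 CPM. Of 11 triad genes, which couple the membrane to calcium release, 6 were higher and 5 lower, with a median of 1.05. *Jph2*, a junctophilin, was at 114 and 210 CPM and *Trdn* at 403 and 690 CPM.

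Z-disc and M-band genes gave 2 of 21 at least 2-fold higher and 1 lower, against 7.93% and 3.49% of all genes, with a median of 0.965. Over fast barcodes 4 of 20 were at least 2-fold higher and none lower, against 8.95% and 2.76%, and the median turned to 1.20, with 14 above and 6 below equality. These 4 were *Xirp2*, *Ankrd1* and, named after their values were seen, *Myoz2* at 2.11-fold and *Csrp3* at 3.39-fold. A single barcode held 76.3% of the callus UMIs of *Csrp3*, and without the top barcode of each library its ratio was 1.89. *Ankrd1* had 0 intact and 43 callus UMIs there, so it entered the count only through the callus. *Xirp2*, an actin-binding repeat protein of the sarcomere, was at 595 and 1282 CPM, 2.15-fold apart (1.82 to 2.56), and *Myom2*, of the M-band, at 78.4 and 154 CPM. *Ankrd2*, a stretch-responsive ankyrin repeat protein, was at 274 and 123 CPM, with a ratio of 0.449 over all and 0.893 over fast barcodes. *Cryab*, a small heat shock protein, was at 3913 and 2170 CPM over all barcodes, where 1 barcode held 41.8% of the intact UMIs, and its ratio turned from 0.555 to 1.20 over fast barcodes. The other gene at least 2-fold higher over all barcodes, *Ankrd1*, was chosen after its values were seen. It had 0 UMIs in intact and 44 UMIs in 14 callus barcodes, at least 6.76-fold higher.

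Outside myofibre barcodes the 40 genes took 1004 CPM (981 to 1027) over 1141 intact barcodes and 1408 CPM (1395 to 1421) over 3144 callus barcodes. Myofibre barcodes held 92.5% of all member UMIs in the intact and 80.3% in the callus library. Every type gated by markers held some gate gene UMIs. The median was 1 in intact and 2 in callus barcodes, and 57.5% and 83.4% of barcodes outside had at least 1. Cut to 1000 UMIs each, which left out 14 and 24 shallower barcodes, 16.9% (14.7 to 19.2) of intact and 29.1% (27.5 to 30.7) of callus barcodes had one. Such shares in types that should lack these genes are read as background.

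Among types with 30 or more barcodes, the 40 genes summed to between 872 CPM in fibroblast-like and 1369 CPM in endothelial-like barcodes of the intact library. In the callus library they summed to between 1203 CPM in erythroid-like and 1935 CPM in fibroblast-like barcodes. Part of this sat in single barcodes. Of the gate gene UMIs outside, 2 intact barcodes held 18.8% and 34 callus barcodes 47.6%, each with 50 gate UMIs or more. Without them the sums outside were 938 and 1091 CPM. Callus fibroblast-like barcodes then stood at 1430 CPM and erythroid-like ones at 647 CPM, where 4 barcodes had held 61.9% of the gate UMIs, and osteoblast-like barcodes were highest of these types, at 1691 CPM. By gate genes alone, at 116 CPM over every barcode, osteoblast-like barcodes were the lowest of these callus types. *Tpm3*, *Atp2a2* and *Tpm1*, taken up below, made up 60.9% of member UMIs outside in the intact and 54.4% in the callus library. Without these genes the sums over every barcode outside were 392 and 642 CPM, so the sums do not measure muscle RNA alone.

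**Figure D4:**
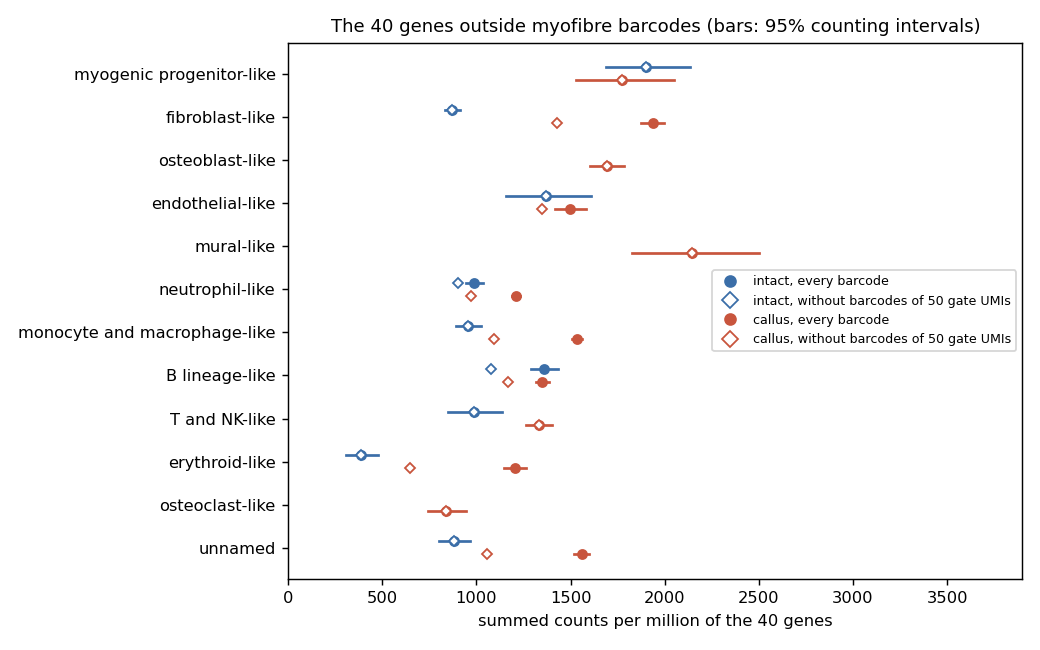
Summed level of the 40 genes, in CPM, in barcodes outside the myofibre gate by marker-gated type, for types of 7 or more barcodes in the intact (blue) and callus (red) library. Bars are 95% counting intervals, and open diamonds leave out barcodes with 50 gate UMIs or more, which lowers the callus fibroblast-like sum from 1935 to 1430.

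Each member was set against an expected number of UMIs. This was made from the gate genes of the same barcodes and the ratio of the 2 in the myofibre barcodes of the same library. It takes free muscle RNA to keep its genes in 1 ratio, which was not tested. The gate genes also chose which barcodes lay inside and outside, which can set the expected numbers too low, most of all for slow genes. Nothing is therefore read from the counts of members above and below. Over all callus barcodes outside, 20 of the 30 members with at least 5 UMIs expected had an interval above the expected number, 3 below and 7 holding it, with a median of 1.31 times and 23 within 2-fold. In the intact library 14 of 22 were above and 3 below, with a median of 1.55 times and 10 within 2-fold. Examples near the expected number were *Tnni2*, with 1921 UMIs observed and 1735 expected over callus barcodes outside, *Tcap* with 398 and 390, and *Myl1* with 1525 and 1725. *Tpm3* and *Atp2a2* were far from it. *Tpm3* was at 437 CPM outside in the intact and 504 CPM in the callus library, with 17084 UMIs against 53.3 expected in the latter, and alone made up 43.5% and 35.8% of the member UMIs outside. *Atp2a2* was at 80.7 and 86.1 CPM, with 2920 UMIs against 1.88 expected in the callus.

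Both genes are known to be used beyond muscle, and both were at a higher level outside than in fast myofibre barcodes. *Tpm3* was at 4.03 and 24.1 CPM in intact and callus fast barcodes, and in the cut counts it stood in 43.6% (40.2 to 47.1) of callus neutrophil-like and 42.3% (38.4 to 46.3) of monocyte and macrophage-like barcodes. In erythroid-like barcodes it stood in 4.62% (1.71 to 9.78). *Atp2a2*, the housekeeping calcium pump as well as that of slow fibres, was at 4.03 and 12.0 CPM in fast barcodes, against 163 and 182 CPM in fibroblast-like ones.

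*Tpm1* had more UMIs than expected in stromal types. In callus osteoblast-like barcodes 971 UMIs stood against 18.6 expected, at 1238 CPM (1162 to 1319), and in fibroblast-like barcodes 919 against 254. Endothelial-like barcodes had 256 against 70.7. Over all callus barcodes outside *Tpm1* had 5980 UMIs, and an excess particular to the stromal types was not shown. In neutrophil-like barcodes of the callus *Tpm1* stood in 8.57% of cut barcodes (6.76 to 10.7), and in osteoblast-like ones in 65.1% (49.1 to 79.0). Fibroblast-like barcodes, at 19.3% (14.6 to 24.7), lay close to erythroid-like ones at 17.7% (11.6 to 25.4) and B lineage-like ones at 16.7% (13.8 to 19.8). The cut shares thus do not set fibroblast-like barcodes apart from these types.

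*Tnnt1*, the slow troponin T, had 397 UMIs in callus neutrophil-like barcodes against 14.5 expected, at 35.3 CPM (31.9 to 38.9), and 62 UMIs against 4.02 in intact ones. It stood in 30.3% of 828 callus neutrophil-like barcodes and 1.92% of 626 B lineage-like ones. Their median depths were 9203 and 3324 UMIs, and in the cut counts the shares were 3.38% (2.26 to 4.85) and 0.481% (0.0993 to 1.40). In the intact library the cut share was 1.62% (0.527 to 3.74) in neutrophil-like and 2.13% (0.259 to 7.48) in monocyte and macrophage-like barcodes. Cut shares of *Tnnt1* thus do not set intact neutrophil-like barcodes apart. No neutrophil-like barcode had more than 6 UMIs of it, against 197 in the deepest slow myofibre barcode of the callus. Of the other slow troponins, *Tnnc1* had 40 UMIs against 10.7 expected there. Nothing is read from this, since the gate can set the expected numbers of slow genes too low.

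Some members of the fibre had excess UMIs in other types. *Ryr1* had 88 UMIs against 4.30 expected in callus monocyte and macrophage-like barcodes, and *Cacna1s* 29 against 1.88 and *Mybpc2* 37 against 12.0 in callus B lineage-like ones. *Cacna1s* was counted in 14 of these 626 barcodes, and in the cut counts in 1 of 624. *Mybpc2* stood in 1.6% of cut B lineage-like (0.77 to 2.9) and 1.2% of cut fibroblast-like barcodes (0.25 to 3.5), so it is not particular to the former. *Ryr1* stood in 2.06% (1.10 to 3.50) of cut callus monocyte and macrophage-like barcodes and in 1.75% (0.570 to 4.03) of those given no type. In the intact library it stood in 0 of 94 cut monocyte and macrophage-like barcodes. *Ttn* had 48 UMIs against 0.339 expected in the 19 intact myogenic progenitor-like barcodes and 24 against 0.486 in the 11 callus ones, at 319 and 227 CPM. These sat in 2 barcodes of each library, with 46 of the 48 intact and 15 of the 24 callus UMIs in 1 of them. Of the heavy chains, *Myh4* had 215 UMIs against 178 expected over the callus barcodes outside.

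**Figure D5:**
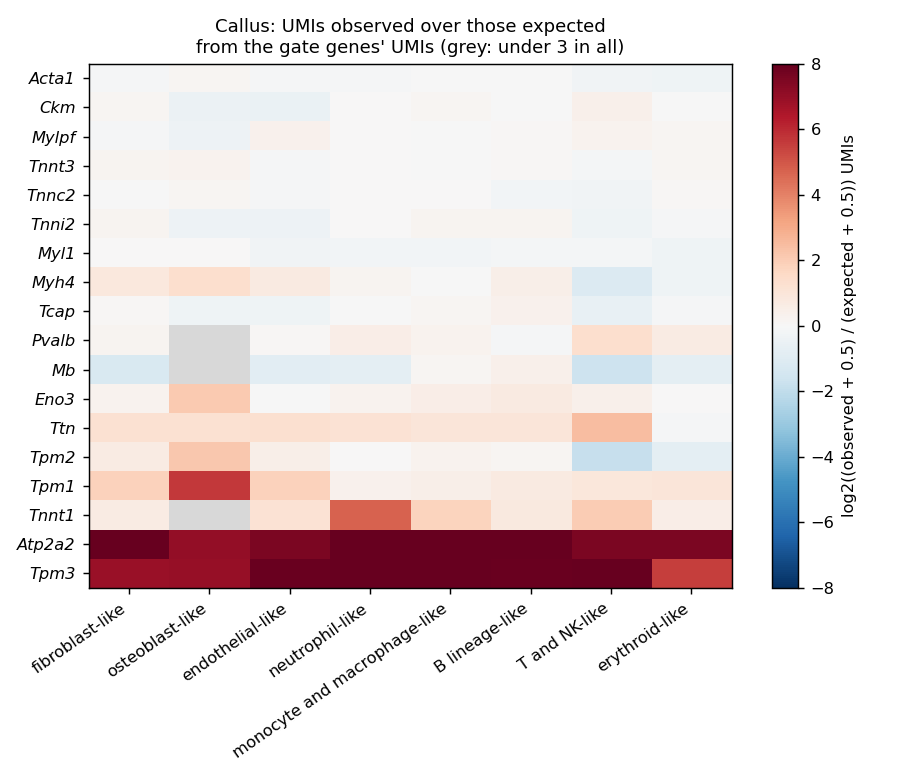
Log2 of UMIs observed over those expected from the gate genes, with 0.5 added to each, for 18 members (rows) in 8 marker-gated types (columns) of the callus library, and grey where both came to under 3. Tnni2, Myl1 and Tcap are near 0 in most types, and Tpm3 and Atp2a2 in every type, Tpm1 in osteoblast-like and Tnnt1 in neutrophil-like barcodes stand above it.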

How the data were processed

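Single-cell RNA-seq (10x 3′ V3) was made by the authors from cells sorted for tdTomato. The deposited counts are raw UMI counts per gene and barcode, which the authors made with Cell Ranger (6.0.0 per the file headers) on mm10. Barcodes with at least 500 genes were kept. CPM is UMIs of a gene over all UMIs of the barcodes summed. Outside the myofibre gate, a barcode got the type, of 12, with the most of its 8 markers detected, if at least 3 were and no type tied. Scrublet called 2 and 4 doublets, under 0.5% of barcodes, so doublets cannot be taken as removed. With 1 library per group no test was run. Intervals are exact Poisson or Clopper-Pearson and cover counting error only. Genes with at least 20 UMIs over both libraries were compared, and 2-fold was the limit. A fold against no UMI uses a floor of 3 counts over the group. Listed genes were named where they were among the 3 highest or 3 lowest ratios with at least 50 UMIs. Exons of 18 members overlap a gene on the opposite strand. The members and lists were chosen with earlier results of these data known. Alternatives changed the gate, gene minimum, UMI minimum and scaling. Python 3.11.15, numpy 2.4.6, scipy 1.17.1 and scanpy 1.11.5 were used, and scripts were tested on simulated data.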

Additional observations from a re-analysis of the deposited data

Results flagged for a closer look

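Muscle transcripts also dominated barcodes that the comparisons left out for having under 500 genes. Of 658 such intact barcodes 83 (12.6%, interval 10.2 to 15.4) met the 5% gate, and of 622 such callus barcodes 238 (38.3%, 34.4 to 42.2). They held between 502 and 1522 UMIs. The 40 genes took 324114 CPM of these barcodes in the intact and 334811 CPM in the callus library. A slow troponin share of at least 50% was found in 3 barcodes of each library, and the pooled slow share was 1.90% (1.59 to 2.26) and 0.623% (0.516 to 0.746). These values were not used elsewhere.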

How the results depend on the processing

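No paired analysis was possible because each group is 1 library. Over 15 alternatives, 62 of 88 recomputed values stayed within the interval, or 1.5 times, of the reported value, and 26 moved. At a minimum of 1000 genes there were 24 intact and 44 callus myofibre barcodes, with slow troponin shares of 6.39% and 3.19%. At 200 genes there were 156 and 459, with 4.68% and 1.41%. The shares were 4.21% and 0.144% with the gate at 10%, 8.90% and 2.96% as a mean over barcodes, and 2.15% and 0.913% without the deepest slow barcode. With the gate at 2%, 0 members were at least 2-fold higher in the callus, over fast barcodes 0 were lower, and over slow barcodes 1 was higher. The sum outside in the intact library was 967 CPM at 200 genes, 1260 CPM with the gate at 10%, 964 CPM at 2% and 938 CPM without barcodes of 50 gate UMIs. In the callus it was 1386 CPM at 1000 genes, 1740 CPM with the gate at 10%, 1216 CPM at 2%, 1429 CPM with a gate without fast isoforms and 1091 CPM without barcodes of 50 gate UMIs. The causes were not tested. The fast or slow barcodes alone and the removal of the deepest slow barcode were chosen after seeing the data. The intact slow share stayed above the callus share in each of these settings. Depth was low for the heavy chains, with a median of 5 and 6 UMIs a barcode.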
